A study of Homo sapiens with 12 samples.

Results

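A group of 10 genes was followed across the 4 groups of an siRNA experiment in MDA-MB-231, a mesenchymal-like triple-negative breast cancer cell line. The genes were EI24, NIN, SELENOT, HCFC2, IAH1, MTMR4, MCFD2, CDCA7L, NR2F2 and ADAMTS6, out of 58051 genes in the count table, and they were picked by symbol because they were lower in siNELFA or in the double knockdown. The cells were transfected with a non-targeting pool (siControl), a pool against NELFA (siNELFA), a pool against YAP1 (siYAP) or both pools (siNELFA+siYAP), with 3 libraries each. The labels give 50 to 100 nM of siRNA and harvests at 48 h and 72 h, and the methods give 72 h for sequencing. All groups were transfected, every group with siNELFA received the same NELFA pool, and all cells came from the same line. All 10 genes passed the filter on low counts in every comparison.

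NELFA encodes a subunit of the negative elongation factor, the complex that holds RNA polymerase II shortly after it has left the start site. Release of the paused polymerase lets it enter the gene body, and the paused state is known both to restrain genes and to keep promoters open. YAP1 encodes the transcriptional co-activator at the end of the Hippo pathway. The question here was how far the 10 genes were lowered by siNELFA when YAP1 was intact and when it was also knocked down.

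The 12 libraries held 9608145 to 18803104 counts. Replicate 1 was set off from replicates 2 and 3 in each group but the double knockdown. The biological coefficient of variation was 0.358 to 0.371 over the 3 libraries of these groups and 0.126 to 0.156 between replicates 2 and 3, against 0.0619 in siNELFA+siYAP. The double knockdown libraries are titled replicates 1 to 3, but their library names read as the first replicate with an index of 1 to 3. Whether they came from 1 transfection or from 3 is not given by the labels, while the methods state independent biological replicates. If they came from 1, the p-values and intervals of each comparison with siNELFA+siYAP would not cover the spread between transfections. A shift of that transfection against the others could then not be told apart from the siRNA change in the estimates. Of the markers fixed for the line, VIM, CD44, AXL, CAV1 and ZEB1 were present, with VIM at 750 to 1180 TPM (reads scaled by transcript length and library size). SPARC, also fixed as present, was only at 2.23 to 9.42 TPM. Of the genes fixed as absent or low, ERBB2 was at 15.7 to 29.4 TPM, EPCAM at 4.34 to 19.2 and GATA3 at 1.64 to 4.36. ESR1, PGR and CDH1 had medians under 1 TPM, although CDH1 reached 12 TPM and ESR1 2.53. The hepatocyte gene ALB was listed at 0 in 12 of 12 libraries. The leukocyte gene PTPRC reached 0.985 TPM and the endothelial gene PECAM1 2.37. In bulk RNA, fewer expressing cells and less RNA per cell cannot be told apart.

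NELFA itself checked the labels. It stood at 25.3, 27.5 and 27.9 CPM (counts scaled to library size with TMM factors) in siControl replicates 1 to 3 and at 9.96, 9.05 and 7.11 CPM in siNELFA. It stood at 33.8, 25.3 and 22.2 CPM in siYAP and at 8.20, 6.73 and 6.35 CPM in siNELFA+siYAP. The groups with and without the NELFA pool did not overlap. YAP1 stood at 247 to 302 CPM in the libraries without the YAP1 pool and at 37.7 to 46.2 CPM in those with it. The other subunits NELFB, NELFCD and NELFE passed the threshold in none of the 4 pairwise comparisons as reported. In these, none had an unadjusted p under 0.05 in edgeR or an adjusted p under 0.05 in DESeq2. Without siControl replicate 1, edgeR called 1 of the 3 lower in siNELFA+siYAP against siControl, where 4531 genes passed in all. Some other edgeR refits gave 1 subunit with an unadjusted p under 0.05.

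Each gene was compared between groups by edgeR's quasi-likelihood test with Benjamini-Hochberg adjustment over all tested genes. In siNELFA against siControl the replicate number was a block. Because the genes were picked on this contrast, its values describe them and test nothing. All 10 were lower, by log2 fold changes from -1.60 to -0.77 with a median of -1.08, beside 0.01 over all tested genes. All 10 passed an adjusted p of 0.05, a threshold that 5.21% of 17727 genes passed in either direction and 2.45% passed as lower. The siNELFA libraries lay below the siControl libraries for all 10, as they did for 5.94% of tested genes. Without the block none of the 10 passed, although all 10 had an unadjusted p under 0.05, and 1 gene in the whole table did.

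The same genes were then compared between siNELFA+siYAP and siYAP, where all cells carried the YAP1 pool. The siYAP libraries had not served to pick the genes, but the double knockdown libraries had. That picking favours falls here, so for the 10 genes this comparison is a description and no independent test. EI24 and NIN passed the adjusted threshold as lower, in a comparison where 0.0291% of 17167 genes did as lower, 0.00583% as higher and 0.035% in either direction. All 10 estimates were negative, with a median of -0.97 beside -0.03 over all tested genes, and 9 genes had an unadjusted p under 0.05, as did 15.5% of all tested genes. For 9 of 10, all but HCFC2, the libraries did not overlap, beside 12.7% of tested genes. The calls depended on single libraries. Without siYAP replicate 1, 10 genes passed, among 2937 in the whole table, and without siYAP replicate 3, 2 did. None passed when siYAP replicate 2 was left out, or when 1 library of siNELFA+siYAP was, whichever it was, and each time 9 had an unadjusted p under 0.05. DESeq2 called 9 of the 10, beside 3.32% of the 15189 genes it tested.

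**Figure D1:**
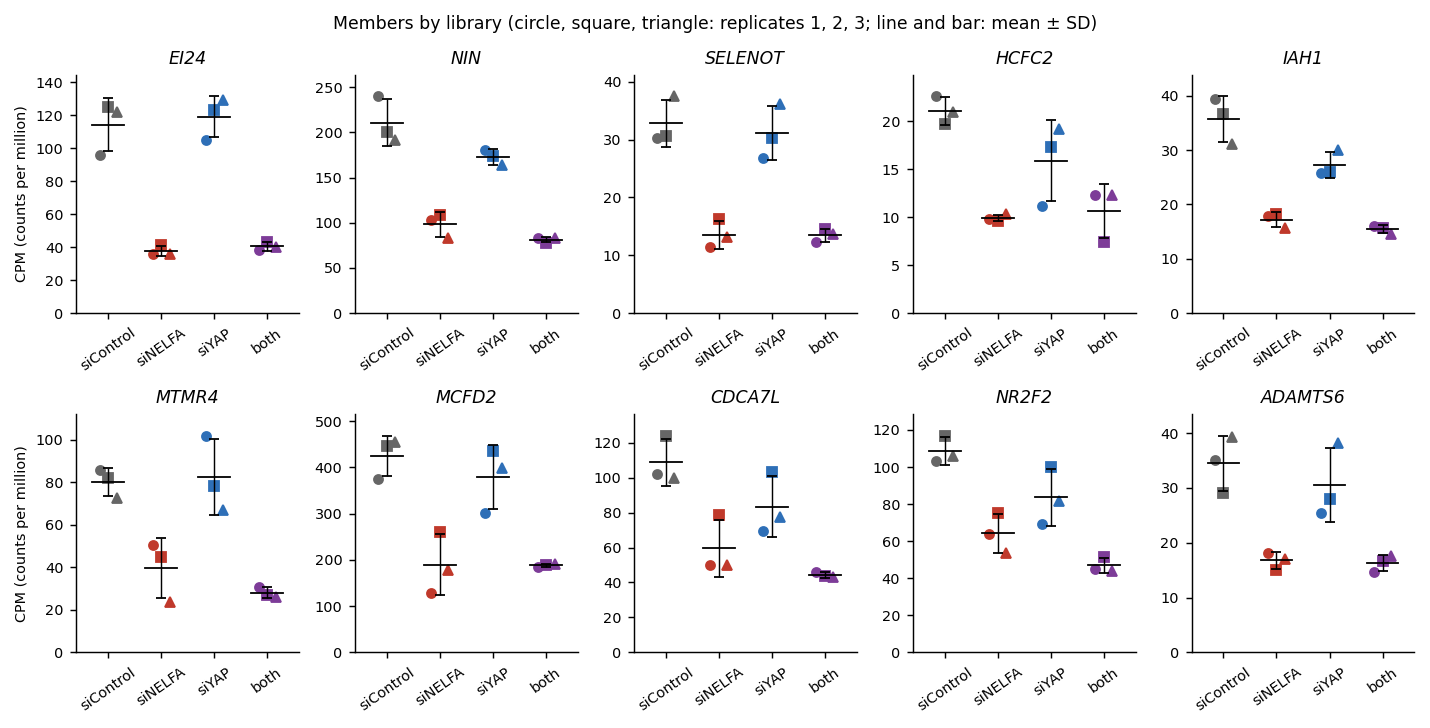
Scaled counts (CPM, vertical axes from 0) of each gene in the 12 libraries, by group, with siNELFA+siYAP written as both; symbols mark replicates and the line with its bar is the mean ± SD of 3 libraries. In each panel the siNELFA libraries lie below the siControl libraries, and the double knockdown libraries lie below the siYAP libraries in all panels but that of HCFC2.

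EI24 encodes a membrane protein of the endoplasmic reticulum that is induced by p53 and needed for autophagy. It stood at 95.7, 125 and 122 CPM in siControl replicates 1 to 3, at 35.8, 41.2 and 35.8 CPM in siNELFA, at 105, 123 and 129 CPM in siYAP, and at 38.0, 43.2 and 40.2 CPM in siNELFA+siYAP. Libraries with and without siNELFA were separated by a wide gap, and siYAP overlapped siControl. The log2 fold change was -1.60 (SE 0.117) in siNELFA against siControl, which left 33.0% of the siControl level. It was -1.56 (SE 0.126, adjusted p = 0.0255) in siNELFA+siYAP against siYAP. With siNELFA alone the EI24 change was the deepest of the 10.

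NIN encodes ninein, which sits on the subdistal appendages of the mother centriole and anchors microtubules there. It stood at 240, 200 and 192 CPM in siControl, at 103, 109 and 82.8 CPM in siNELFA, at 181, 174 and 164 CPM in siYAP, and at 83.1, 78.0 and 83.4 CPM in siNELFA+siYAP. The order of the group means was siControl, siYAP, siNELFA and siNELFA+siYAP, and only the last pair overlapped. The change of NIN on the log2 scale was -1.10 (SE 0.106) with siNELFA alone and -1.09 (SE 0.104, adjusted p = 0.0386) with siNELFA on top of siYAP. With siYAP alone it was -0.28 (SE 0.107, unadjusted p = 0.0248, adjusted p = 0.539).

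The promoter windows of EI24 and NIN are shown because these were the only genes of the 10 past the threshold in both comparisons. Sequences are from RefSeq on GRCh38.p14, on the gene's strand. Capitals in the EI24 stretch, chr11:125569340-125569369 (+), mark a match to the ZNF143 motif, which starts 128 bases before the RefSeq gene start. In GENCODE v44 the EI24 gene starts at chr11:125569280, so the stretch lies inside that gene span. Capitals in the NIN stretch, chr14:50831163-50831412 (-), the 250 bases before its start, mark a GC box.
EI24: cccggactgACTACATTTCCCagtctccgt
NIN: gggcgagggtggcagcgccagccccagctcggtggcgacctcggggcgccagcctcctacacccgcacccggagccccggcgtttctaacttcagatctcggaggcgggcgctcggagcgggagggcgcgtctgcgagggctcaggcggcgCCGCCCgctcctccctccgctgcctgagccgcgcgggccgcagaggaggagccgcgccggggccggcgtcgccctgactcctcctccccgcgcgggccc

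All 10 genes matched promoter windows of 300 bases, 15 windows in all since IAH1, MCFD2, NR2F2 and MTMR4 had several. Motifs were searched on both strands as plain letters. The ZNF143 motif was in EI24 alone among the 10 and in 0.78% of 35116 windows. The GC box GGGCGG was in 8 genes and 45.0% of windows, the CCAAT box (CCAAT) in 3 genes and 34.6%, and the E-box CACGTG in 4 genes and 7.26%. The ETS motif CCGGAAG was in 2 genes and 10.3% of windows, the YY1 motif AAGATGG in 2 genes and 5.84%, and the cAMP response element TGACGTCA in ADAMTS6 and 1.85%. The TATA box TATAAA was in none of the 10 and in 11.5% of windows. In 1 MCFD2 window a CCAAT box abutted a GC box, which overlapped the next GC box. The median GC content was 68.7% in the 15 windows and 58.7% in all. The 35116 windows were not limited to genes that passed the filter on low counts, as the 10 did. The windows follow RefSeq starts. Those of IAH1, SELENOT, MCFD2 and NR2F2, and an MTMR4 window, lie inside the GENCODE gene spans given below. The E-boxes of NR2F2 are in the window chr15:96332315-96332614, which holds coding sequence of that gene. These matches describe the letters, and genes with several windows had more chances to hold one.

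The genes of membrane traffic and the endoplasmic reticulum were MCFD2, SELENOT, MTMR4 and, above, EI24. MCFD2 works with LMAN1 as the cargo receptor that carries coagulation factors V and VIII from the endoplasmic reticulum to the Golgi. It was the most abundant of the 10 per length, at 175 ± 18.3 TPM (SD, n = 3) in siControl. MCFD2 stood at 374, 446 and 454 CPM in siControl, at 129, 260 and 179 CPM in siNELFA, at 302, 436 and 398 CPM in siYAP, and at 185, 188 and 191 CPM in siNELFA+siYAP. The siNELFA libraries ranged widely and the double knockdown libraries fell within that range. Its log2 fold change was -1.22 (SE 0.128) with siNELFA alone and -1.02 (SE 0.146, adjusted p = 0.0867) on top of siYAP.

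SELENOT encodes a selenoprotein of the endoplasmic reticulum membrane with a thioredoxin-like fold. It stood at 30.2, 30.7 and 37.5 CPM in siControl, at 11.4, 16.2 and 13.1 CPM in siNELFA, at 26.9, 30.2 and 36.1 CPM in siYAP, and at 12.3, 14.5 and 13.7 CPM in siNELFA+siYAP. As for EI24, the libraries without siNELFA formed one range and those with it another. SELENOT had a log2 fold change of -1.28 (SE 0.164) with siNELFA alone and -1.21 (SE 0.165, adjusted p = 0.0853) on top of siYAP.

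MTMR4 encodes a phosphatase that removes the phosphate of phosphatidylinositol 3-phosphate on endosomes. It stood at 85.6, 82.2 and 72.6 CPM in siControl, at 50.7, 45.0 and 23.9 CPM in siNELFA, at 102, 78.5 and 66.9 CPM in siYAP, and at 31.0, 27.0 and 26.3 CPM in siNELFA+siYAP. The siNELFA replicate 3 library lay far below the other siNELFA libraries and at the level of the double knockdown. MTMR4 had a log2 fold change of -1.07 (SE 0.155) with siNELFA alone and -1.56 (SE 0.183, adjusted p = 0.0595) on top of siYAP.

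The nuclear proteins were HCFC2, CDCA7L and NR2F2. HCFC2 encodes a host cell factor found with histone H3K4 methyltransferases, and it had the lowest level per length of the 10, at 9.06 ± 2.32 TPM (SD, n = 3) in siControl. HCFC2 stood at 22.6, 19.7 and 21.0 CPM in siControl, at 9.80, 9.63 and 10.3 CPM in siNELFA, at 11.2, 17.3 and 19.2 CPM in siYAP, and at 12.3, 7.44 and 12.3 CPM in siNELFA+siYAP. The siYAP replicate 1 library lay below 2 double knockdown libraries, so those groups overlapped. Its log2 fold change was -1.08 (SE 0.165) with siNELFA alone and -0.58 (SE 0.281, adjusted p = 0.362) on top of siYAP, where the 95% interval ran from -1.24 to 0.07. The latter value was -0.77 without siYAP replicate 1 and -0.38 without siNELFA+siYAP replicate 2.

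CDCA7L encodes a MYC-interacting protein that also binds PSIP1. It stood at 102, 124 and 100 CPM in siControl, at 50.0, 78.3 and 50.2 CPM in siNELFA, at 69.6, 103 and 77.2 CPM in siYAP, and at 45.9, 43.9 and 43.0 CPM in siNELFA+siYAP. The replicate 2 libraries of siControl, siNELFA and siYAP were the highest of their groups, and siNELFA overlapped siYAP. CDCA7L had a log2 fold change of -0.89 (SE 0.116) with siNELFA alone and -0.92 (SE 0.164, adjusted p = 0.123) on top of siYAP.

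NR2F2 encodes the orphan nuclear receptor COUP-TFII, known from vein and lymphatic vessel identity. It stood at 103, 117 and 106 CPM in siControl, at 64.1, 75.0 and 53.8 CPM in siNELFA, at 69.1, 100 and 81.9 CPM in siYAP, and at 45.0, 51.7 and 44.2 CPM in siNELFA+siYAP. Its levels ran in the order siControl, siYAP, siNELFA and siNELFA+siYAP, with siYAP and siNELFA overlapping. The log2 fold change of NR2F2 was -0.77 (SE 0.113) with siNELFA alone, the smallest of the 10, and -0.84 (SE 0.161, adjusted p = 0.128) on top of siYAP.

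IAH1 encodes a putative esterase named after a yeast enzyme that hydrolyses isoamyl acetate. It stood at 39.4, 36.6 and 31.1 CPM in siControl, at 17.8, 18.3 and 15.6 CPM in siNELFA, at 25.8, 26.0 and 30.1 CPM in siYAP, and at 16.0, 15.7 and 14.6 CPM in siNELFA+siYAP. The siYAP libraries lay between the siControl and siNELFA libraries, with no overlap. IAH1 had a log2 fold change of -1.04 (SE 0.142) with siNELFA alone and -0.83 (SE 0.143, adjusted p = 0.118) on top of siYAP.

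ADAMTS6 encodes a secreted metalloprotease of the extracellular matrix that acts on fibrillin microfibrils. It stood at 35.1, 29.1 and 39.2 CPM in siControl, at 18.2, 15.1 and 17.1 CPM in siNELFA, at 25.5, 28.0 and 38.2 CPM in siYAP, and at 14.7, 16.7 and 17.5 CPM in siNELFA+siYAP. Libraries with siNELFA lay below all libraries without it. The log2 fold change of ADAMTS6 was -1.03 (SE 0.145) with siNELFA alone and -0.91 (SE 0.189, adjusted p = 0.132) on top of siYAP.

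**Figure D2:**
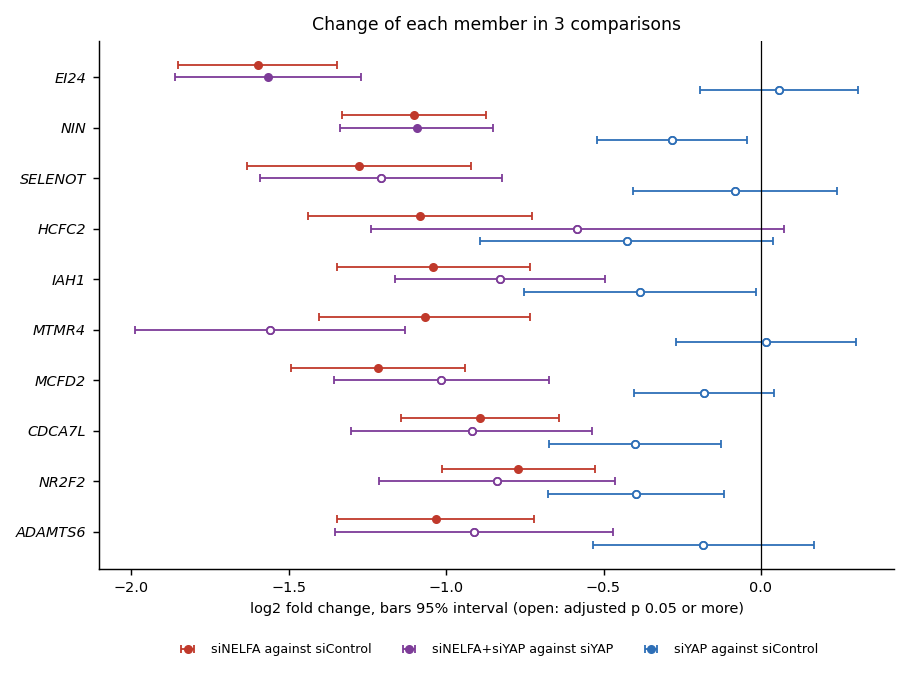
Log2 fold change of each gene (horizontal axis, bars 95% interval) in siNELFA against siControl, siNELFA+siYAP against siYAP and siYAP against siControl; filled points have an adjusted p under 0.05. The siNELFA values run from -1.60 to -0.77, and EI24 and NIN carry the only filled points in siNELFA+siYAP against siYAP.

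Within each replicate number, which paired siControl with siNELFA, every siNELFA library was lower than its partner for all 10 genes. The lowest share was EI24 in replicate 3, at 29.4% of siControl, and the highest was NR2F2 in replicate 2, at 64.0%. Replicate 2 held the highest siNELFA value for 7 of the 10 genes. In siNELFA+siYAP against siControl, also a contrast the genes were picked on, the log2 fold changes ran from -1.52 for MTMR4 to -0.996 for HCFC2. Of the 10, 8 passed the adjusted threshold, as 0.308% of 17533 genes did as lower, 0.12% as higher and 0.428% in either direction. HCFC2 (adjusted p = 0.0946) and ADAMTS6 (adjusted p = 0.0515) did not. Leaving out siControl replicate 1 gave 10, among 4531 in the whole table. Leaving out siControl replicate 2 or any 1 double knockdown library gave none of the 10.

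With siYAP alone, which shares the siControl libraries with the first comparison, no gene of the 10 passed the adjusted threshold in edgeR or DESeq2, as 0.0173% of 17296 genes did in edgeR and 0.184% in DESeq2. The log2 fold changes ran from -0.43 for HCFC2 to 0.06 for EI24, and 8 were negative. The unadjusted p was under 0.05 for NIN, IAH1, CDCA7L and NR2F2, as it was for 9.11% of tested genes. CDCA7L was at -0.40 (SE 0.122, adjusted p = 0.525) and NR2F2 at -0.40 (SE 0.125, adjusted p = 0.525). The siYAP libraries lay below the siControl libraries for NIN, HCFC2, IAH1 and NR2F2, as they did for 3.64% of tested genes. The 10 genes were picked as lower than these same siControl libraries, which favours falls here too. Their counts beside all tested genes are thus a description and no independent test. The siYAP replicate 1 library was the lowest of its group for 8 of the 10 genes. Without siControl replicate 1, or without siYAP replicate 1, 2 genes of the 10 passed, CDCA7L and NR2F2. In the refit without siControl replicate 1, 307 genes passed in the whole table.

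Whether the siNELFA effect differed with and without siYAP was examined as a difference of log2 fold changes over all 12 libraries. The siNELFA and double knockdown libraries in it are those the genes were picked on. For the 10 genes the difference is therefore a description and no independent test. No gene of the 10 passed, none had an unadjusted p under 0.05, and DESeq2 called none. In the whole table edgeR called 0 of 18525 genes, with 326 at an unadjusted p under 0.05. The difference was 0.04 for EI24 (95% interval -0.40 to 0.49) and 0.01 for NIN (-0.41 to 0.44). It was lowest for MTMR4, at -0.55 (-1.31 to 0.22), and highest for HCFC2, at 0.51 (-0.23 to 1.25). These intervals come from a fit without a replicate block, although siControl, siNELFA and siYAP are paired. With the block edgeR again called none of the 10, and the intervals were -1.004 to 0.055 for MTMR4 and -0.19 to 1.19 for HCFC2, around -0.47 and 0.50. That block also pairs the double knockdown by number, although its libraries are not paired with the rest, so neither fit matches the design.

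**Figure D3:**
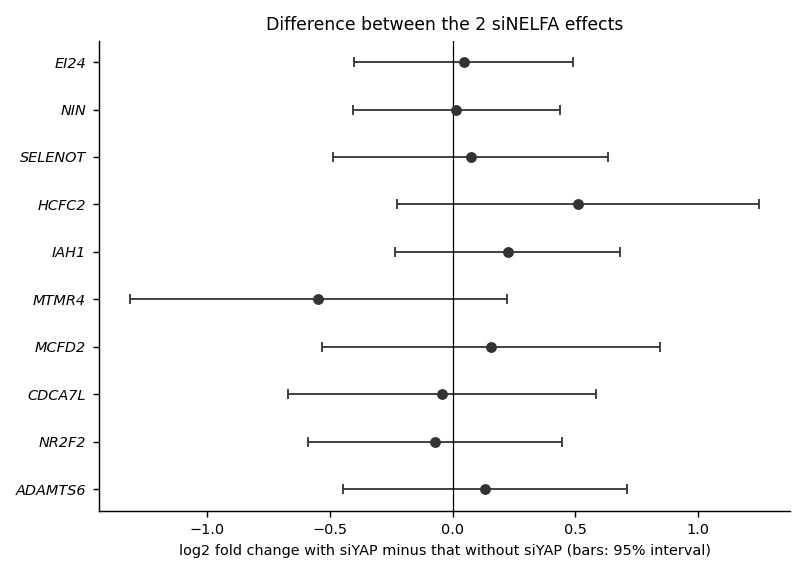
Log2 fold change with siNELFA in cells with siYAP minus that in cells without siYAP (horizontal axis, bars 95% interval), for each gene over 12 libraries. All intervals cross 0, from MTMR4 at -0.55 to HCFC2 at 0.51.

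The relatives of the genes in pathways and families were given by 9 lists. In siNELFA against siControl, 6 of 219 relatives were called lower and 12 higher, beside 2.45% and 2.76% of all tested genes. Without the block none was, with 13 at an unadjusted p under 0.05. Without replicate 1 of siControl or of siNELFA, 25 of 221 were called lower and 31 higher. In the refit without siControl replicate 1, 2820 genes passed in all. Without siNELFA replicate 2, 5 relatives were called lower and 5 higher. With the block, leaving out either library of a replicate pair drops that pair from the comparison, so such refits are not separate checks. Of the 17 relatives named here, 7 passed with any 1 library left out, TMED9, PCM1, EEA1, ATG9A, SQSTM1, PSIP1 and PPARA. Each of the other 10 lost its call in at least 1 of the refits that left out replicate 2 or 3 of siControl or of siNELFA, with adjusted p-values up to 0.245 in TUBGCP3, 0.184 in CDCA7, 0.167 in MAP1LC3B and 0.149 in BCAP31. In siNELFA+siYAP against siYAP edgeR called none of 219, with 52 at an unadjusted p under 0.05, as were 15.5% of all tested genes. DESeq2 called 8 of 216 lower and 5 higher, beside 3.32% of all genes in either direction. Without siYAP replicate 1, edgeR called 29 of 220 lower and 40 higher, where 2937 genes passed in all. The median log2 fold changes of the lists with siNELFA ran from -0.20 for centriole genes to 0.18 for autophagy genes.

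The traffic relatives of MCFD2 rose where they changed, with 6 of 32 called higher and none lower. TMED9 (log2 fold change 0.60, adjusted p = 0.0103) and TMED3 (0.59, adjusted p = 0.0166) encode p24 cargo adaptors, and LMAN2L (0.55, adjusted p = 0.0404), BCAP31 (0.44, adjusted p = 0.0244) and SURF4 (0.45, adjusted p = 0.0185) serve export from the endoplasmic reticulum. In autophagy, 4 of 33 genes rose and none fell. They were ATG9A (0.58, adjusted p = 0.0137), WDR45 (0.57, adjusted p = 0.0223), MAP1LC3B (0.50, adjusted p = 0.0159) and the cargo receptor SQSTM1 (0.46, adjusted p = 0.01). EI24 and MCFD2 thus moved opposite to the called relatives on their lists.

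Among 29 centriole and microtubule anchoring genes, 2 fell and none rose. PCM1, of the centriolar satellites, was at -0.55 (adjusted p = 0.0104), and TUBGCP3, of the gamma-tubulin complex, at -0.53 (adjusted p = 0.0223). Of 23 phosphoinositide genes EEA1, an endosome tether that binds phosphatidylinositol 3-phosphate, fell (-0.50, adjusted p = 0.0439). Its change was -0.31 without siControl replicate 1 and -0.30 without siNELFA replicate 1. No other gene of that list passed.

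PSIP1, a chromatin reader and partner of CDCA7L, fell by 0.62 on the log2 scale (adjusted p = 0.02), and was 1 of 19 host cell factor genes and of 15 CDCA7L partners. CDCA7, the paralog of CDCA7L, also fell (-0.57, adjusted p = 0.0362), and MXD4, a MAX partner, rose (0.61, adjusted p = 0.0321). Among 27 nuclear receptor genes PPARA, a fatty acid sensor, fell (-1.13, adjusted p = 0.00223), with -1.55 (adjusted p = 0.136) on top of siYAP. Among 17 ADAMTS family genes ADAMTS9 rose (0.55, adjusted p = 0.00884), opposite to ADAMTS6. In siNELFA against siControl edgeR called none of 25 selenoprotein genes, with 6 at an unadjusted p under 0.05, and DESeq2 none of the 20 it tested. Without replicate 1 of siControl or of siNELFA, edgeR called 1 lower and 4 higher, where 2820 genes passed in all without siControl replicate 1.

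**Figure D4:**
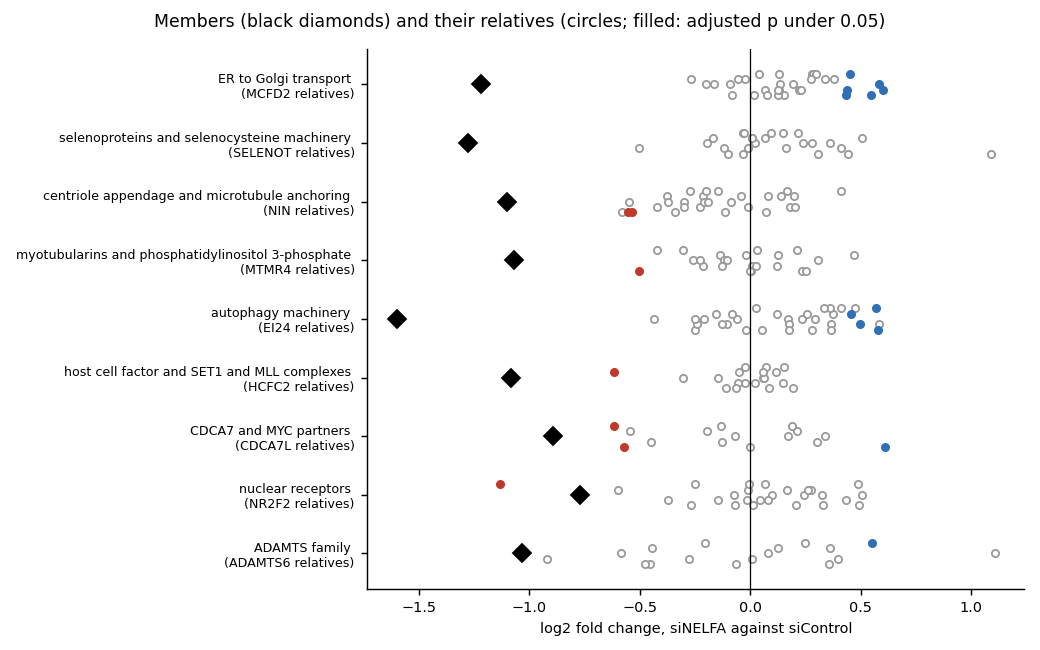
Log2 fold change in siNELFA against siControl (horizontal axis) of 9 of the 10 genes (diamonds) and of the tested genes on each list of relatives (circles, filled where the adjusted p is under 0.05). The diamonds lie at the left, PPARA lies further left than NR2F2, and the filled circles of the traffic and autophagy lists lie to the right of 0.

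Genes outside the 10 with the most similar pattern were ranked by the Pearson correlation of log2 CPM with the mean z score of the 10. The 12 libraries of 4 groups are the ones the 10 were picked on, and 12961 genes were ranked. The highest were ARNTL2 (0.978), CDK5RAP2 (0.977), ALDH9A1 (0.974), NSMAF (0.974) and FAM169A (0.969). ALDH9A1, an aldehyde dehydrogenase, was at -2.92 in siNELFA against siControl and at -3.11 in siNELFA+siYAP against siYAP, a deeper fold change than that of NELFA itself at -1.64 and -1.94. CDK5RAP2, a centrosomal protein on the NIN list, was at -0.27 and -0.31.

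An siRNA can lower transcripts other than its target, and every library with siNELFA received the same pool, so loss of NELFA and any other effect of that pool cannot be told apart. The sequences of the pool are not given in the sources used here, and matches to their seeds were not searched. The longest runs of bases shared between each gene's main mRNA and the NELFA mRNA were found instead, since siRNAs against NELFA match that mRNA. In the sense orientation the runs were 10 to 16 bases for the 10 genes, and in the reverse complement 11 to 14. None reached 19 bases, a length that 2 of 12659 genes reached in sense and 1 in reverse complement. The longest were the following runs in sense, both in the 3' UTR of the gene shown.
NIN: ttttaaaattttaata
MTMR4: tttgagatgaactat
Runs as long as that of NIN were found in 0.814% of genes and as long as that of MTMR4 in 2.72%. These shares were not matched for length, and a longer mRNA has more chances to hold a run. The NIN mRNA has 10334 bases and that of MTMR4 5987, beside a median of 3373 over tested genes. The NIN run is made of A and T only. For EI24 the longest run was 13 bases, as in 24.3% of genes, and for ALDH9A1 it was 11, as in 88.8%. A run describes the letters and is no test of targeting.

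The main mRNAs (MANE Select, GENCODE v44, GRCh38) of the 10 had a median length of 4703.5 bases beside 3373 over tested genes, and a median GC content of 43.3% beside 48.2%. Their 3' UTRs had a median of 2721.5 bases beside 1324, and that of EI24, at 1001 bases, was the only one under the median of all. The GC content was lowest in SELENOT (34.9%) and HCFC2 (36.2%). The genes lie on 9 chromosomes, with IAH1 (chr2:9473658-9496543, +) and MCFD2 (chr2:46901870-46941855, -) on the same one. EI24 lies at chr11:125569280-125584684 (+), NIN at chr14:50719763-50831162 (-), SELENOT at chr3:150602875-150630436 (+) and HCFC2 at chr12:104064531-104106524 (+). MTMR4 lies at chr17:58489529-58517905 (-), CDCA7L at chr7:21900899-21945903 (-), NR2F2 at chr15:96325938-96340263 (+) and ADAMTS6 at chr5:65148738-65481920 (-).

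Exons of SELENOT, IAH1, MCFD2 and CDCA7L overlap exons of a coding gene on the opposite strand. The libraries kept strand, but the strand option of the counting step is not given in the sources used here, so reads of the overlapping pairs could be shared. With siNELFA the log2 fold change was 0.19 (SE 0.119) for SERP1, opposite SELENOT, and 0.19 (SE 0.125) for TTC7A, opposite MCFD2. It was -0.33 (SE 0.162) for DNAH11, opposite CDCA7L, and 0.35 (SE 0.102, adjusted p = 0.0668) for ADAM17, opposite IAH1. None of the 4 partners passed the adjusted threshold in either comparison, and ADAM17 was at 0.73 (SE 0.127, adjusted p = 0.118) on top of siYAP.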

How the data were processed

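MDA-MB-231 RNA was sequenced from 4 groups of 3 libraries. The authors depleted ribosomal RNA, made stranded libraries, used STAR on GRCh38 with Ensembl release 87 and featureCounts per gene, and the deposited counts are not normalized. TPM values, also deposited, come from the authors' own estimate in each library. The 12 columns of an FPKM table were left out, since TPM is also scaled by length and library size. FPKM was not compared with TPM. The 10 genes, the lists of relatives, the tests and the alternatives were chosen with earlier results of these data known.

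From the counts, edgeR 4.0.16 (R 4.3.3) was run with TMM factors and filterByExpr (minimum count 10, total 15, proportion 70%) on the libraries compared, with adjustment over all tested genes at 0.05. A standard error is the log2 fold change over the root of its F statistic, and 95% intervals use its degrees of freedom. Alternatives were DESeq2 1.42.0, RLE size factors, no filter, the block changed, 12 libraries in one fit, limma 3.58.1 on log2(TPM + 1) and log2(TPM + 0.1), and each library left out. Leaving out replicate 1 of both groups was chosen after seeing the data. The tests were tested on simulated data first. Figures used matplotlib 3.10.9.

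Replicate numbers, from the labels, were checked as pairs over 12971 genes: deviations from group means correlated at 0.65 to 0.889 among siControl, siNELFA and siYAP and at -0.0514 to 0.0276 with siNELFA+siYAP. So the double knockdown is not paired with the rest, and the other 3 groups are paired. The methods call the replicates independent biological replicates, and the labels do not say whether they were separate cultures, so p-values measure the spread between these libraries.

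Named genes are the 10, NELFA and YAP1, up to 5 genes a list past the adjusted threshold in either siNELFA comparison, by size of change, and the 5 genes most correlated with the 10 among those averaging at least 50 counts. Genes overlapping the 10 and the NELF subunits are named besides. The lists came from general knowledge.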

Additional observations from a re-analysis of the deposited data

How the results depend on the processing

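No single value of the 10 genes that passed in the reported fit changed sign. All 140 refits of single genes stayed below 0 in siNELFA against siControl, as did all 140 in siNELFA+siYAP against siYAP and all 140 in siNELFA+siYAP against siControl, and 117 of 140 did in siYAP against siControl. The counts of calls moved more. The cause was not tested where none is named.

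The replicate block decided many calls. In siNELFA against siControl, 10 of the 10 genes and 924 in all passed with the block, and 0 and 1 without it. In siYAP against siControl 3 genes in all passed with it and 1 without it. In siNELFA+siYAP against siYAP a replicate block left 0 of the 10 and 1 in all, from 2 and 6, and in siNELFA+siYAP against siControl it left 0 of the 10 and 2 in all, from 8 and 75. The numbers do not pair the double knockdown with the other groups.

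In siNELFA against siControl, no filter on low counts gave 1733 genes, 12 libraries in one fit without the block gave 4 of the 10 and 8 in all, and TPM with pseudocounts of 1 and 0.1 gave 5 and 1 of the 10, and 43 and 15 in all. In siNELFA+siYAP against siYAP, DESeq2 gave 9 of the 10 and 504 in all, no filter 7 and 222, and TPM 1 and 0 of the 10. In siYAP against siControl, DESeq2 gave 37 genes, no filter 174, TPM with a pseudocount of 1 gave 7, and 12 libraries 1. In siNELFA+siYAP against siControl, DESeq2 gave 935, no filter 381, and TPM gave 5 and 5 of the 10, and 20 and 19 in all.

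Leaving out 1 library gave 613 to 2820 genes in siNELFA against siControl, with 10 of the 10 each time. It gave 0 to 2937 in siNELFA+siYAP against siYAP, with 0 to 10 of the 10, and 17 to 307 in siYAP against siControl, with 0 to 2. In siNELFA+siYAP against siControl it gave 0 to 4531, with 0 to 10. In the fits with a block, refits that left out either library of a pair were not separate checks. Without replicate 1 of both groups, chosen after seeing the data, the counts were 2835, 1349, 290 and 3259 in that order, with 9 of the 10 in siNELFA+siYAP against siYAP and 2 in siYAP against siControl. The difference of siNELFA effects gave 0 genes in every alternative run.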
